A study of Homo sapiens with 9 samples.

Results

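Lipases cut fatty acids from stored or circulating fat, and a small set of coat proteins, activators and inhibitors decides how fast a cell's lipid droplets are broken down. The 10 genes described here are LPL, LIPG, ANGPTL4, PNPLA2, ABHD5, G0S2, LIPE, MGLL, PLIN2 and PLIN3. They were chosen by their fitted differences between UGDH knockdown and control libraries and by their roles, taken by symbol from a table of 23710 gene entries, all 10 were present, and all 10 passed the filter on low counts that left 12546 genes. Levels came from RNA sequencing of MDA-MB-231 cells, a human cell line from a triple-negative breast cancer. The cells carried pGIPZ vectors delivered by lentivirus. The 9 libraries form 3 groups of 3, namely cells with shUGDH-1, cells with shUGDH-2, both hairpins against UGDH, and cells with shNT, a non-targeting control hairpin. All groups carried the vector and a hairpin, and no untransduced cells were analysed here. UGDH makes UDP-glucuronate, the sugar donor for hyaluronan and sulfated glycosaminoglycans, and the comparison asks which transcripts differ when it is depleted. The labels call the cultures biological replicates without saying whether each was transduced separately, so errors and p-values here reflect only how far these libraries spread.

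Fat leaves a lipid droplet in steps. PNPLA2 (adipose triglyceride lipase) removes the first fatty acid from triglyceride, LIPE (hormone-sensitive lipase) acts on the diglyceride that remains, and MGLL (monoglyceride lipase) releases the last one. ABHD5 (CGI-58) activates PNPLA2 and G0S2 inhibits it, while PLIN2 and PLIN3 coat the droplet surface. LPL (lipoprotein lipase) and LIPG (endothelial lipase) are secreted enzymes of a common family that work on lipoproteins outside the cell, LPL mostly on triglyceride and LIPG mostly on phospholipid, and ANGPTL4 is a secreted inhibitor of LPL.

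In GENCODE 29 on GRCh38, the secreted proteins' genes are LPL at chr8:19901717-19967259 (plus strand), LIPG at chr18:49560699-49599182 (plus) and ANGPTL4 at chr19:8363289-8374373 (plus). PNPLA2 lies at chr11:818902-825573 (plus), ABHD5 at chr3:43690108-43734371 (plus) and G0S2 at chr1:209675420-209676388 (plus). LIPE lies at chr19:42401507-42427426 (minus), MGLL at chr3:127689062-128052190 (minus), PLIN2 at chr9:19108375-19149290 (minus) and PLIN3 at chr19:4838341-4867768 (minus). No 2 of them overlap, and counts are per whole gene.

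Because their differences between knockdown and control libraries were already known, they are given as a description, with the standard error (SE) of a fit over all genes and without p-values. A call below means a Benjamini-Hochberg adjusted p under 0.05 in that fit (edgeR, quasi-likelihood test).

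Libraries held 9249738 to 13328002 counts assigned to genes. UGDH stood at 7.62, 7.30 and 8.03 CPM (counts scaled to library size) with shUGDH-1, at 8.09, 6.62 and 6.79 CPM with shUGDH-2 and at 53.0, 55.6 and 50.3 CPM with shNT, so every knockdown library lay below every control library. VIM, CD44, MSN, AXL and LGALS1 of the cell line's markers were abundant, while SPARC was near the detection limit at 0.434 to 1.54 CPM. The hormone receptor genes ESR1 and PGR had at most 1 and 0 counts in any library, and ERBB2 was present at 114 to 129 CPM. Adipocyte markers summed to 1.84 to 2.56 CPM with shUGDH-1, 2.78 to 3.85 CPM with shUGDH-2 and 2.21 to 3.30 CPM with shNT, nearly all of it from CFD, with ADIPOQ at 0 throughout. The 7 macrophage markers summed to 88 to 94.3 CPM with shUGDH-1, 90.2 to 96.6 CPM with shUGDH-2 and 96.9 to 104 CPM with shNT, mostly CD68, with MARCO and CD163 at 0. The 5 endothelial markers summed to 2.26 to 4.02, 2.62 to 3.64 and 3.57 to 3.84 CPM in the same groups, mostly KDR. Replicate 1 of shNT stood apart from the other controls, with 2.31 and 2.25 times the variance of counting alone against replicates 2 and 3, where all other pairs within a group lay between 1.19 and 1.61.

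The agents that separate the groups are the hairpins, whose sequences from the labels are printed 5′ to 3′ with bases 2 to 8 in capitals. These bases are the seed if the guide begins at the first base printed, which was not tested. Both sequences are antisense to UGDH mRNA and match exon 4 of the gene on chromosome 4 in GRCh38, on the minus strand. They lie at chr4:39510687-39510705 for shUGDH-1 and at chr4:39510800-39510818 for shUGDH-2.
shUGDH-1: tTGCATCAaatatgcgacg
shUGDH-2: aTATACTTcagatctgctg

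The 300 bases around the annotated start (250 before it and 50 after it) are shown for LIPG and G0S2, which were called in opposite directions with both hairpins. The sequences are RefSeq's on GRCh38.p14, a build other than the authors' hg19, for LIPG at chr18:49561807-49562106 and for G0S2 at chr1:209675162-209675461, both on the plus strand. The LIPG window lies wholly inside the gene's span given above, which begins at chr18:49560699. The start used for this window is therefore downstream of that position. Capitals mark the CCAAT box in LIPG and the TGACNNNGC match in G0S2.
LIPG: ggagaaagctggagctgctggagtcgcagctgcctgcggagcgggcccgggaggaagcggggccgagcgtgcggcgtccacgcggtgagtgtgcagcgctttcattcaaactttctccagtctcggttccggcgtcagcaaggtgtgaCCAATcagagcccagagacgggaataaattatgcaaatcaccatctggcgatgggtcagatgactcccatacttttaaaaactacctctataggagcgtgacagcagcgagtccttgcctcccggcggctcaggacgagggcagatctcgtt
G0S2: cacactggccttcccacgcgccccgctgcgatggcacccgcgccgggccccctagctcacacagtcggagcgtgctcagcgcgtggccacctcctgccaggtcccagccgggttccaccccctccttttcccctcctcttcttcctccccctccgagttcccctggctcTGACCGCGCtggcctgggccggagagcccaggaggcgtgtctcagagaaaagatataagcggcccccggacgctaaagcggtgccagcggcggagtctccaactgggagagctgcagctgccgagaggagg

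The windows were searched on both strands for 15 motifs, and the shares given here are of 35116 promoters of this length. The LIPG window held the CCAAT box 102 bases before its own start (34.6% of promoters hold this box). It also held TTGCNNAA, a C/EBP pattern, 74 bases before that start (10.5%). The G0S2 window held TGACNNNGC, the core of the antioxidant response element, 81 bases before the start (13.3%), and none of the other 14 motifs.

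Promoters were listed for 8 of the 10 genes. None was listed for LPL or MGLL, so these genes were not searched and nothing is said of their motifs. CCAAT was also present in PLIN3 and LIPE, TGACNNNGC in PLIN3, and GGGCGG in 6 of the 8 (45% of promoters). AGGTCA, a nuclear receptor half-site, was found in PNPLA2 alone (13.8%). The E-box CACGTG was found in PLIN2 alone (7.26%), the wider CACNTG that contains it in PLIN2 and ABHD5 (42%), and ACGTG, which it also contains, in PLIN2 and ANGPTL4 (21.4%). TATAAA lay 29 bases before the start in ANGPTL4 and, on the opposite strand, in PLIN2 (11.5%). None of the 8 held TGANTCA (7.71%), the strict or the relaxed paired site of PPAR and RXR receptors, each of which contains half-sites (0.0228% and 0.31%), a sterol response element (0.0456%), an NF-kB site (0.191%) or a cAMP response element (1.85%). A match describes letters in a window and is not evidence of binding.

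The secreted lipases LPL and LIPG differed most from the control. LPL had 130, 161 and 94 counts with shUGDH-1, 58, 67 and 53 counts with shUGDH-2 and 30, 25 and 20 counts with shNT. Scaled to library size this was 10.01, 12.1 and 10.2 CPM with shUGDH-1, 4.89, 5.16 and 4.28 CPM with shUGDH-2 and 2.31, 2.13 and 1.70 CPM with shNT. The 3 groups did not overlap, and shUGDH-2 libraries lay between the others.

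The log2 difference of LPL from shNT was 2.39 (SE 0.17) with shUGDH-1, a 5.25-fold higher level and the 3rd highest of the 12546 genes. With shUGDH-2 it was 1.22 (SE 0.20), 2.32-fold and 21st. Between the hairpins, shUGDH-2 minus shUGDH-1, LPL differed by -1.18 (SE 0.14), the 16th lowest value of all genes, while remaining UGDH differed by -0.09 (SE 0.13).

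LIPG had 102, 117 and 63 counts with shUGDH-1, 74, 88 and 74 counts with shUGDH-2 and 23, 20 and 28 counts with shNT. Its level was 7.85, 8.80 and 6.84 CPM with shUGDH-1, 6.23, 6.78 and 5.98 CPM with shUGDH-2 and 1.77, 1.70 and 2.39 CPM with shNT. Every knockdown library was above every control library, and the shUGDH-2 libraries ended just below the lowest shUGDH-1 library. The log2 differences of LIPG from shNT were 2.02 (SE 0.18) with shUGDH-1 and 1.70 (SE 0.19) with shUGDH-2, 4.06-fold and 3.25-fold, ranking 4th and 9th of all genes. Between hairpins LIPG differed by -0.32 (SE 0.14), a smaller gap than that of LPL.

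The proportion of LPL to LIPG differed between the hairpins. Per length of merged exons, LPL was 3.92, 4.23 and 4.59 times LIPG in shUGDH-1 libraries, 2.41, 2.34 and 2.20 times in shUGDH-2 libraries and 4.01, 3.84 and 2.20 times in shNT libraries. The shUGDH-1 and shUGDH-2 ratios did not overlap, and the control ratios, which rest on 20 to 30 counts per gene, overlapped both.

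ANGPTL4, their secreted inhibitor, was scarce in all groups. It had 30, 20 and 22 counts with shUGDH-1, 19, 20 and 28 counts with shUGDH-2 and 30, 52 and 33 counts with shNT, or 2.31, 1.51 and 2.39 CPM, 1.60, 1.54 and 2.26 CPM, and 2.31, 4.42 and 2.81 CPM in the same order. The shUGDH-1 libraries overlapped the controls, and the shUGDH-2 libraries lay below them with the closest pair at 2.26 and 2.31 CPM. The log2 differences of ANGPTL4 from shNT were -0.63 (SE 0.25) with shUGDH-1 and -0.81 (SE 0.25) with shUGDH-2. Without replicate 2 of shNT, its highest library, they were -0.32 and -0.50, and without replicate 1 of shNT, its lowest, they were -0.83 and -1.001. The shUGDH-1 difference, not called otherwise, was called without replicate 1 of shNT and with no filter on low counts. The shUGDH-2 call was lost without replicate 2 of shNT, without replicate 1 or 2 of shUGDH-2 and with DESeq2.

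**Figure D1:**
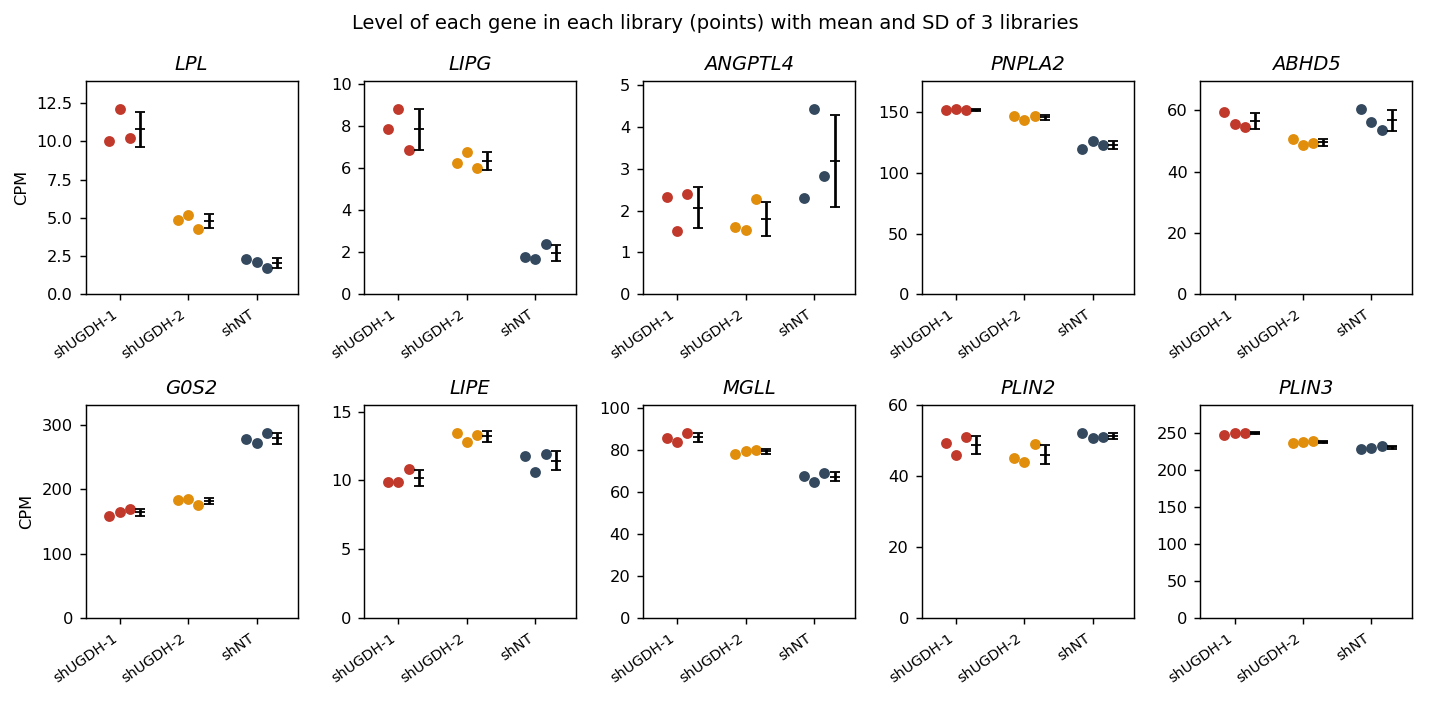
Level in CPM (vertical axis, from 0) of each of the 10 genes in the 3 libraries of shUGDH-1, shUGDH-2 and shNT. Points are libraries, and the black bar beside them is the mean with SD (n = 3). LPL and LIPG stand above the control with both hairpins, G0S2 stands below it, and PLIN3 keeps its 3 groups apart at similar levels.

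Of the intracellular genes, G0S2, the inhibitor of PNPLA2, stood furthest from the control. It had 2053, 2182 and 1563 counts with shUGDH-1, 2176, 2404 and 2178 counts with shUGDH-2 and 3623, 3185 and 3376 counts with shNT. This was 158.1, 164.2 and 169.6 CPM with shUGDH-1, 183.3, 185.1 and 176.0 CPM with shUGDH-2 and 278.3, 270.8 and 287.6 CPM with shNT. All knockdown libraries were far below all controls, and the lowest shUGDH-2 library was above the highest shUGDH-1 library.

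The log2 differences of G0S2 from shNT were -0.77 (SE 0.03) with shUGDH-1 and -0.62 (SE 0.03) with shUGDH-2, which leave 0.587 and 0.651 of the control level. They were the 49th and 58th lowest values of the 12546 genes. Between the hairpins G0S2 differed by 0.15 (SE 0.03), higher with shUGDH-2.

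PNPLA2, the enzyme that G0S2 inhibits, lay on the other side of the control. It stood at 151.6, 152.9 and 151.8 CPM with shUGDH-1, at 147.2, 143.7 and 147.3 CPM with shUGDH-2 and at 120.0, 126.5 and 122.9 CPM with shNT. The knockdown libraries were all above the controls, by a log2 difference of 0.31 (SE 0.03) with shUGDH-1 and 0.25 (SE 0.03) with shUGDH-2, or 1.24-fold and 1.19-fold. Its exons share 332 bases with an annotated gene on the other strand, AP006621.1, and no source used here gives the strand setting of the counting.

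The G0S2 and PNPLA2 differences combine in their ratio. Per length of merged exons, G0S2 transcript was 2.92, 3.01 and 3.13 times that of PNPLA2 in shUGDH-1 libraries, 3.49, 3.61 and 3.35 times in shUGDH-2 libraries and 6.5, 6 and 6.56 times in shNT libraries. The ranges of the 3 groups were apart, with inhibitor transcript still in excess of enzyme transcript in every library. Transcript ratios do not give protein ratios.

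ABHD5, the activator of PNPLA2, stood at 59.4, 55.5 and 54.4 CPM with shUGDH-1, at 50.7, 48.5 and 49.1 CPM with shUGDH-2 and at 60.4, 56.1 and 53.4 CPM with shNT. Only the shUGDH-2 libraries lay below the controls. The log2 difference of ABHD5 from shNT was -0.004 (SE 0.05) with shUGDH-1 and -0.20 (SE 0.05) with shUGDH-2, and between hairpins it was -0.19 (SE 0.05). Without replicate 1 of shNT the call with shUGDH-2 was lost, and the call between hairpins was lost with DESeq2 and without replicate 1 of shUGDH-1 or replicate 2 of shUGDH-2. Its ratio to PNPLA2 per length was 0.139 to 0.152 with shUGDH-1, 0.129 to 0.134 with shUGDH-2 and 0.169 to 0.195 with shNT.

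LIPE, the diglyceride lipase, was the gene whose difference from the control had opposite signs for the 2 hairpins. It had 9.86, 9.86 and 10.9 CPM with shUGDH-1, 13.5, 12.8 and 13.3 CPM with shUGDH-2 and 11.8, 10.6 and 11.9 CPM with shNT. The shUGDH-1 libraries overlapped the controls and the shUGDH-2 libraries were above them. The log2 differences of LIPE were -0.18 (SE 0.11) and 0.20 (SE 0.10), neither of them called, and between hairpins 0.38 (SE 0.11). That last call was lost without replicate 1 or replicate 2 of shUGDH-1 and with DESeq2.

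MGLL, which completes triglyceride breakdown, stood at 85.7, 83.9 and 88.2 CPM with shUGDH-1, at 78.1, 79.7 and 80.1 CPM with shUGDH-2 and at 67.7, 65.0 and 69.2 CPM with shNT. No 2 groups overlapped. The log2 differences of MGLL from shNT were 0.35 (SE 0.04) and 0.24 (SE 0.04), 1.27-fold and 1.18-fold.

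PLIN2 and PLIN3 coat droplets in most cell types. PLIN2 stood at 49.5, 46.1 and 51.1 CPM with shUGDH-1, at 45.2, 43.9 and 49.1 CPM with shUGDH-2 and at 52.3, 50.7 and 51.1 CPM with shNT. Its shUGDH-1 libraries overlapped the controls, and its shUGDH-2 libraries lay below them by a log2 difference of -0.16 (SE 0.06), a call kept in 8 of 15 alternative settings and lost without any 1 of the shNT libraries, without replicate 1 or 2 of shUGDH-2, and with DESeq2 or upper-quartile scaling. With shUGDH-1 the log2 difference of PLIN2 was -0.08 (SE 0.06).

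PLIN3 stood at 247.3, 249.9 and 249.0 CPM with shUGDH-1, at 235.5, 236.6 and 238.6 CPM with shUGDH-2 and at 228.1, 229.4 and 232.3 CPM with shNT. The 3 groups did not overlap although the log2 differences of PLIN3 from shNT were only 0.11 (SE 0.03) and 0.04 (SE 0.03), 1.08-fold and 1.03-fold. PLIN3 was called higher with shUGDH-1, as in all 15 alternative settings, and was not called with shUGDH-2 or between hairpins. Its exons share 502 bases with AC027319.1, a gene on the other strand.

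**Figure D2:**
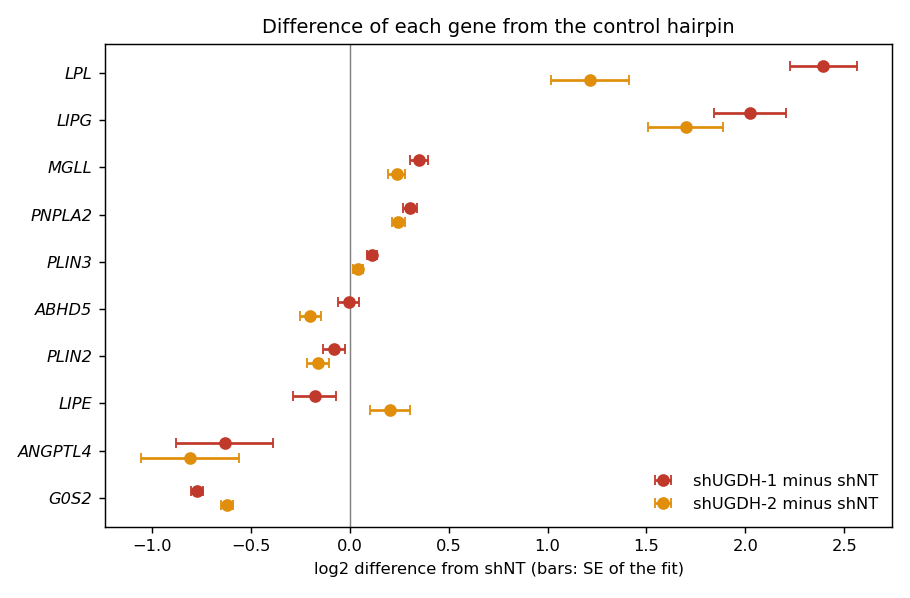
Log2 difference from shNT (horizontal axis) for each gene with shUGDH-1 (red) and shUGDH-2 (orange). Points are fitted values, and bars are their SE. LPL and LIPG lie furthest right, G0S2 and ANGPTL4 furthest left, and LIPE is the gene whose points lie on opposite sides of 0 by more than their SE.

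Over the 10 genes, 5 were called higher and 1 lower with shUGDH-1, where 20.8% of all genes tested were called (10.5% higher and 10.3% lower). With shUGDH-2, 4 were called higher and 4 lower, where 14.9% of all genes were called (8.04% higher and 6.81% lower). The same genes LPL, LIPG, PNPLA2 and MGLL were called higher and G0S2 lower with each hairpin. Both comparisons use the same 3 control libraries. Libraries of the groups did not overlap for 6 genes with shUGDH-1 (5 higher and 1 lower; 34.1% of all genes, 17.3% higher and 16.8% lower) and for 10 with shUGDH-2 (6 higher and 4 lower; 28.5%, 14.7% higher and 13.9% lower). Between the hairpins 2 of the 10 were called higher with shUGDH-2, LIPE and G0S2, and 2 lower, LPL and ABHD5 (10.9% of all genes called, 5.36% higher and 5.51% lower). For 8 the libraries did not overlap, 2 higher and 6 lower (27% of all genes, 13.1% higher and 13.9% lower). Because the choice of members used these comparisons, nothing is read from their counts, or from the size of their differences, against the background. The median absolute log2 difference of the 10 was 0.33 with shUGDH-1 and 0.24 with shUGDH-2, beside 0.098 and 0.086 over all genes tested.

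The authors' deposited tables give each of the 10 genes the same sign as this fit with both hairpins. Their log2 fold change for LPL was 2.04 (SE 0.17) with shUGDH-1 and 0.99 (SE 0.19) with shUGDH-2, and for LIPG 1.67 (SE 0.19) and 1.40 (SE 0.18), each smaller than the value fitted here. For G0S2 the authors' deposited tables give -0.77 (SE 0.04) and -0.62 (SE 0.04).

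Levels differed widely among the members once divided by length. In CPM per kb of merged exons, G0S2 led with 189 ± 6.66 in shUGDH-1 cells, 210 ± 5.58 in shUGDH-2 cells and 322 ± 9.74 in shNT cells (SD, n = 3 each). PLIN3 followed with 107 ± 0.547, 102 ± 0.674 and 98.6 ± 0.924 CPM per kb, then PNPLA2 with 62.7 ± 0.277, 60.2 ± 0.851 and 50.7 ± 1.34 CPM per kb, and PLIN2 with 21.3 ± 1.11, 20.01 ± 1.19 and 22.3 ± 0.371 CPM per kb, in the same groups. MGLL and ABHD5 came next in every group. In shNT cells these 2 did not differ beyond their spread, at 9.08 ± 0.289 and 9.05 ± 0.561 CPM per kb, whereas in shUGDH-1 cells MGLL stood at 11.6 ± 0.295 and ABHD5 at 9.01 ± 0.418 CPM per kb. The closeness in shNT cells depends on the length used: per kb of the transcript with the longest coding sequence, MGLL stood at 14.5 and ABHD5 at 10.6 CPM.

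The lowest 4 positions were held by LIPE, ANGPTL4, LPL and LIPG, and their order differed between groups. LPL was 7th of the 10 with shUGDH-1, at 2.80 ± 0.302 CPM per kb and within the spread of LIPE at 2.67 ± 0.151. It was 8th with shUGDH-2, at 1.24 ± 0.117 CPM per kb, and 9th with shNT, at 0.532 ± 0.0802 CPM per kb. LIPG was last in each group, at 0.662 ± 0.0831, 0.535 ± 0.0344 and 0.165 ± 0.0319 CPM per kb with shUGDH-1, shUGDH-2 and shNT. Even with shUGDH-1, where its transcript was 4.06-fold higher than in the control, 8.6% of 11587 genes with a length lay below LIPG, against 1.23% with shNT. The order was the same when lengths were taken from the transcript with the longest coding sequence. Which isoform these cells use was not measured, and the annotated LIPG transcript is long, at 10441 bases.

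G0S2 made up 45.6% to 47.2% of the summed level per length of the 10 transcripts in shUGDH-1 libraries, 49.3% to 51.1% in shUGDH-2 libraries and 61.5% to 62.9% in shNT libraries. PNPLA2 made up 15.1% to 15.6%, 14.2% to 14.7% and 9.59% to 10.2%. LPL, despite its large fold difference, made up at most 0.773% in any library.

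**Figure D3:**
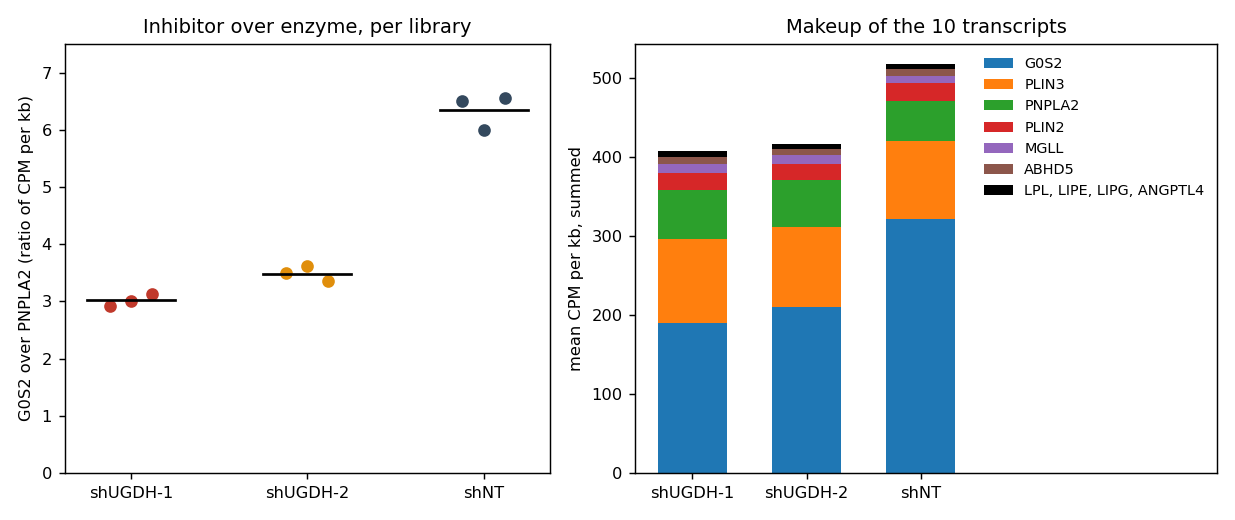
Left, ratio of G0S2 to PNPLA2 (CPM per kb of merged exons) in each library, with black lines at the group means. Right, mean CPM per kb of the 10 transcripts stacked by gene, with LPL, LIPE, LIPG and ANGPTL4 summed in a single black block. The ratio is at most 3.13 with shUGDH-1, 3.35 to 3.61 with shUGDH-2 and 6 or more with shNT, and G0S2 is the largest block in each group.

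The genes whose profiles were most like those of LPL, LIPG and G0S2 were found by the Euclidean distance between log2 CPM over the 9 libraries, centred on the control mean, among 10522 other genes. PAPPA, a protease of insulin-like growth factor binding proteins, lay nearest to LPL at a distance of 0.863, followed by LIPG (1.24), INHBA (1.41) and COL4A4 (1.52). INHBA, a subunit of activin A, lay nearest to LIPG at 0.746, followed by LPL (1.24), the desaturase gene SCD (1.41) and the transporter gene SLC16A7 (1.54). For G0S2 they were ABHD16B (0.406), AKR1C3 (0.417), SLC7A11 (0.429) and CYP1B1 (0.431). These distances describe likeness of profile in these libraries only.

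Genes of the same pathways outside the 10 were taken from 5 lists with 111 genes, of which 79 passed the filter on low counts. These lists were chosen with earlier results of these data known. Their shares and medians beside those of all genes are therefore description, not evidence of an excess. With shUGDH-1, 27 of the 79 passed edgeR's test with adjustment over all genes, 18 upward and 9 downward (34.2%, beside 20.8% of all genes). With shUGDH-2, 18 passed, 11 upward and 7 downward (22.8%, beside 14.9%). With both hairpins in the same direction 9 rose and 5 fell, where 4.72% of all genes rose and 3.61% fell with both. The median absolute log2 difference of the 79 was 0.13 and 0.092, against 0.098 and 0.086 over all genes. With DESeq2, 16 and 15 of the 79 passed.

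LPL's partners and the receptors for lipoproteins formed the list with the most changes in 1 direction. Of 13 tested, 6 rose with shUGDH-1, and shUGDH-2 raised 5 (46.2% and 38.5% of the list). The count that fell was 0 for each hairpin by edgeR, as it was at an unadjusted p under 0.05 and by DESeq2. The list's median log2 fold change was 0.12 and 0.11, against -0.003 and -0.006 over all genes. LRP1, an endocytic receptor that also takes up lipoprotein remnants, rose by log2 values of 0.27 and 0.26 (adjusted p = 2.0e-05 and 8.1e-05 by edgeR).

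In the same list SORT1, sortilin, rose 1.14-fold and 1.10-fold, and FURIN, a protease that can cleave LPL, 1.08-fold with each hairpin. Some other molecules that act with LPL or on its products in the body were well expressed in these cells. LMF2, SEL1L and SDC1 of this list stood at 131, 94.15 and 139.5 CPM in shNT cells. The fatty acid transporter gene SLC27A4 stood at 79.2 CPM. In the same cells LMF1 and APOC1 of this list were scarce, at 3.70 and 0.71 CPM. SDC1 was called higher with shUGDH-1 (log2 0.19, adjusted p = 2.0e-05 by edgeR) and was not called with shUGDH-2 (log2 0.04). Some others were at or near 0. GPIHBP1, the anchor of LPL on capillary endothelium, had at most 1 count in any library, the LPL cofactor APOC2 had 0, and CD36, a fatty acid translocase, had at most 1.

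Other lipid hydrolases showed 3 of 14 up and 1 down with shUGDH-1, and 0 up and 1 down with shUGDH-2 (28.6% and 7.14% of the list, beside 20.8% and 14.9% of all genes). With shUGDH-2 1 rose at an unadjusted p under 0.05 by edgeR and 0 by DESeq2. NCEH1, a neutral cholesterol ester hydrolase, fell with both hairpins, at log2 fold changes of -0.11 and -0.10 (adjusted p = 0.0023 and 0.0045 by edgeR), calls that were both lost without replicate 1 of shNT. ABHD12, a lysophosphatidylserine and monoglyceride lipase, stood at 118 ± 2.84 CPM for shUGDH-1, 99.2 ± 1.48 CPM for shUGDH-2 and 94.3 ± 4.83 CPM for shNT (SD, n = 3 each). Its log2 fold change was 0.32 with shUGDH-1 (adjusted p = 4.3e-09 by edgeR) and -0.25 for shUGDH-2 minus shUGDH-1 (adjusted p = 3.0e-06). LIPA, the lysosomal acid lipase, rose 1.10-fold with shUGDH-1 (adjusted p = 0.012 by edgeR) and stood at -0.03 on the log2 scale with shUGDH-2 (adjusted p = 0.71). LIPH, a phosphatidic acid lipase of the same family as LPL, rose by 0.27 on the log2 scale with shUGDH-1 (adjusted p = 0.025 by edgeR) and stood at 0.15 on the log2 scale with shUGDH-2 (adjusted p = 0.28). The LIPA and LIPH calls were lost with DESeq2, without replicate 3 of shNT and without replicate 1 or 2 of shUGDH-1, and that of LIPH also without replicate 2 of shNT. The NCEH1 call with shUGDH-2 was also lost without replicate 1 of shUGDH-2.

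Of 12 tested genes for droplet coat, growth and biogenesis, 0 rose with either hairpin, 3 fell with shUGDH-1 and 1 with shUGDH-2 by edgeR. These are 25% and 8.33% of the list, beside 20.8% and 14.9% of all genes, so the counts do not set the list apart. At an unadjusted p under 0.05, 2 and 1 rose, and by DESeq2 0 and 0. C2orf43 (LDAH, a droplet-associated hydrolase) fell by 0.48 on the log2 scale with shUGDH-1 (adjusted p = 0.024 by edgeR), at 4.46 CPM in shUGDH-1 cells. METTL7A fell by 0.34 (adjusted p = 0.0090) and HSD17B11 by 0.19 (adjusted p = 0.0054) with the same hairpin, both proteins of the droplet surface. RAB18, a small GTPase on droplets, fell by 0.19 with shUGDH-2 (adjusted p = 0.0041 by edgeR). The C2orf43 and METTL7A calls were lost with DESeq2 and without replicate 3 of shNT, and that of C2orf43 also without replicate 2 of shNT or replicate 2 or 3 of shUGDH-1. The RAB18 and HSD17B11 calls were lost without replicate 1 of shNT, and that of HSD17B11 also without replicate 1 of shUGDH-1. The droplet proteins typical of adipocytes were too low to test, with at most 5 counts in any library for PLIN1 and 2 for CIDEC.

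**Figure D4:**
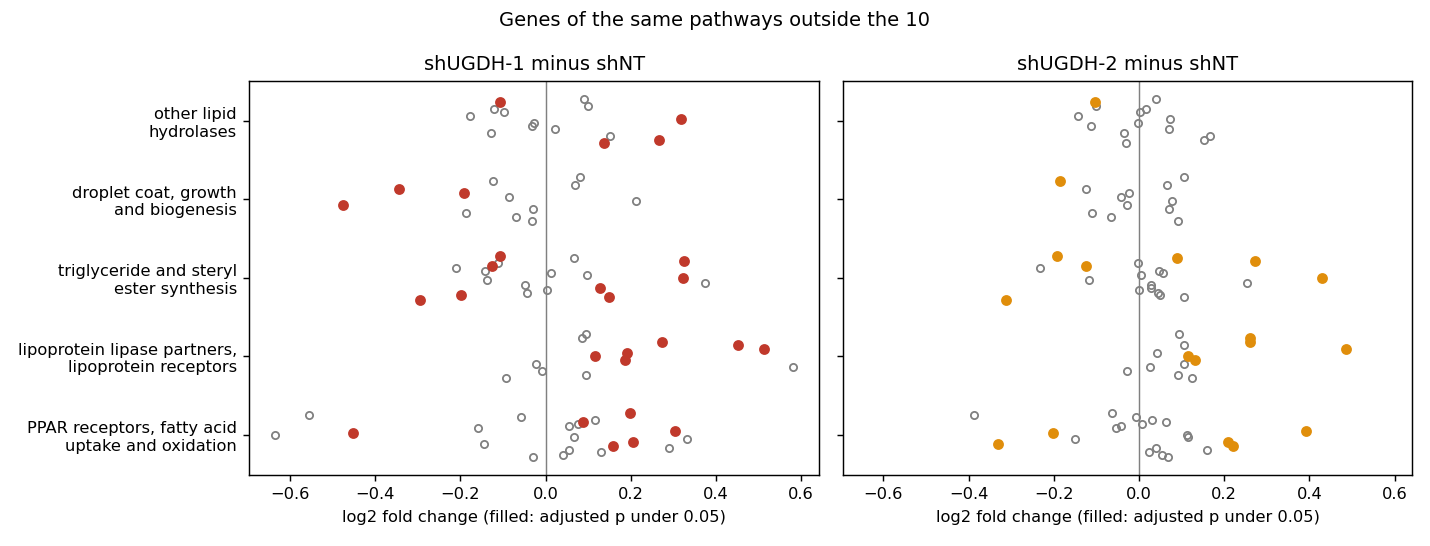
Log2 fold change from shNT (horizontal axis) of the 79 tested genes of 5 lists outside the 10, with shUGDH-1 on the left and shUGDH-2 on the right. Filled points have an adjusted p under 0.05 and open points do not. Filled points of the lipoprotein lipase partner and receptor list all lie right of 0, and those of the droplet list all lie left of it.

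Genes of triglyceride and steryl ester synthesis, the route that fills droplets, split in direction, with 4 of 19 up and 4 down with shUGDH-1 and 3 up and 3 down with shUGDH-2 (42.1% and 31.6% of the list). LPIN1, a phosphatidate phosphatase, rose by log2 values of 0.32 and 0.43 (adjusted p = 2.5e-05 and 6.7e-08 by edgeR), and the acyl-CoA synthetase gene ACSL3 by 0.32 and 0.27 (adjusted p = 1.5e-08 and 1.8e-06). ACSL5, another acyl-CoA synthetase gene, fell by 0.11 and 0.19 (adjusted p = 0.0069 and 2.7e-06 by edgeR). GPAM, the mitochondrial acyltransferase of the first step, fell by 0.29 and 0.31 on the log2 scale (adjusted p = 0.030 and 0.025 by edgeR), and both calls were lost with DESeq2, without replicate 2 or 3 of shNT, and without replicate 2 or 3 of the hairpin concerned. SOAT1, which makes cholesteryl esters, fell by 0.13 and 0.12 (adjusted p = 0.0055 and 0.0086 by edgeR), the call with shUGDH-2 being lost without its replicate 3.

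Of 21 genes for PPAR receptors and fatty acid uptake and oxidation, shUGDH-1 raised 5 and lowered 1, while shUGDH-2 raised 3 and lowered 2. These are 28.6% and 23.8% of the list, beside 20.8% and 14.9% of all genes. CPT1A, which admits long-chain fatty acids to mitochondria, stood at 77.2 ± 3.20 CPM with shUGDH-1, 91.9 ± 4.82 CPM with shUGDH-2 and 106 ± 2.20 CPM with shNT (SD, n = 3 each). It fell by 0.45 and 0.20 on the log2 scale (adjusted p = 8.2e-13 and 3.0e-04 by edgeR), and the hairpins differed by 0.25 (adjusted p = 2.0e-05). CPT2, its partner in the inner membrane, rose 1.24-fold and 1.31-fold (adjusted p = 0.014 and 0.0016 by edgeR). RXRA, the partner receptor of the PPARs, rose 1.12-fold and 1.17-fold and the fatty acid transporter gene SLC27A1 by 0.21 with each on the log2 scale. Both SLC27A1 calls were lost with DESeq2 and without replicate 3 of shNT, with shUGDH-1 also without its replicate 2 or 3 and with shUGDH-2 also without replicate 2 of shNT or its own replicate 3. With shUGDH-1 the CPT2 call was lost with DESeq2 and without replicate 1 of either group, and that of RXRA without replicate 3 of shNT. PPARG, a receptor that drives LPL and PLIN2 in other tissues, did not pass with either hairpin, its log2 difference being 0.13 (SE 0.08) with shUGDH-1 and 0.02 (SE 0.08) with shUGDH-2.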

How the data were processed

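Per the labels' protocols, RNA came from an RNeasy kit, and libraries from a NuGen mRNA kit were run paired-end on a NextSeq. The deposited table holds raw read counts per gene. The submitters' processing notes name STAR, DESeq, DESeq2 and hg19, and no source used here gives versions, annotation, counting tool or strand setting. The authors' deposited comparison tables hold, per the file headers, a baseMean signal, a log2 fold change with SE, and p-values raw and adjusted. Only the fold changes and their SE were used.

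Entries whose symbols had become dates (28, 0.232% of counts) stayed in the fit unnamed. filterByExpr kept 12546 genes with 99.93% of counts. Counts were fitted with edgeR 4.0.16 in R 4.3.3 (TMM, robust quasi-likelihood, 1 mean per group, 9 libraries, 6 residual degrees of freedom), with Benjamini-Hochberg adjustment over all genes. SE is the absolute log2 difference over the root of the F statistic. The fit was tested on simulated data. Alternatives were other scaling factors, no filter, DESeq2 1.42.0, only the groups compared, a replicate block and leaving out each library. Lengths are merged exons of GENCODE 29 (GRCh38).

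The members and gene lists were chosen with earlier results of these data known. Named were the 10 members, UGDH, the 4 nearest profiles of LPL, LIPG and G0S2, and from each list up to 4 genes with at least 5 CPM in a group, those called with both hairpins first. Some items that this rule covers are not reported here. PPARG, ACSL5, LMF1, LMF2, SEL1L, SDC1, APOC1, SLC27A4 and the genes too low to test were named after their values were seen. The 15 motifs were listed after the members' levels were known, and all 15 are reported. The 2 printed promoters and the matches in capitals were picked after the search.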

Additional observations from a re-analysis of the deposited data

Results flagged for a closer look

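The genes counted here are those outside the 10 that the naming rule took from the lists. The nearest profiles of LPL, LIPG and G0S2 were not included. Of the genes counted, 4 differed between the hairpins themselves (shUGDH-2 minus shUGDH-1, edgeR with adjustment over all genes). ABHD12 differed by -0.246 on the log2 scale (adjusted p = 3.0e-06) and LIPA by -0.167 (adjusted p = 0.0034), both lower with shUGDH-2. CPT1A differed by 0.25 (adjusted p = 2.0e-05) and HSD17B11 by 0.168 (adjusted p = 0.027), both higher with shUGDH-2. The HSD17B11 call was lost with DESeq2 and without replicate 1 of shUGDH-1 or replicate 1 or 2 of shUGDH-2. SDC1, which was named after its values were seen, was also lower with shUGDH-2, by -0.149 (adjusted p = 0.0014 by edgeR). Its call was not followed through the alternative settings.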

How the results depend on the processing

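All 450 log2 differences of the 10 members under 15 alternatives stayed within 1 replicate SD of the value given. Leaving out 1 of a group's 3 libraries can hardly move a difference further, so those fits could not have failed this check. The calls of LPL, LIPG, PNPLA2, MGLL and G0S2 against shNT held in all 15. With DESeq2, 1629 genes were called in place of 2605 with shUGDH-1, 1011 in place of 1864 with shUGDH-2 and 790 in place of 1363 between hairpins. DESeq2 also called 16 related genes in place of 27 with shUGDH-1 and 6 in place of 11 between hairpins. It called 6 members in place of 8 with shUGDH-2 and 2 in place of 4 between hairpins. The cause was not tested. Leaving out 1 library gave 7 to 14 related genes and 2 to 4 members between hairpins, with 7 related genes without replicate 1 of shUGDH-1 or replicate 3 of shUGDH-2, and 2 members without replicate 1 of shUGDH-1. For shUGDH-2 against shNT it gave 6 to 8 members, with 6 without replicate 1 or 2 of either group. Of 900 values of named related genes, 49 lost a call and 4 gained one. Deviations of same-numbered replicates correlated at -0.11 to 0.207, the highest value being for replicate 1 of shNT and shUGDH-1. Differently numbered replicates were not compared, so these values do not settle whether replicates were paired. With the replicate block 2582, 1857 and 1326 genes were called in the 3 comparisons, and each member kept its call. Depth limits LPL, LIPG and ANGPTL4, which rest on 19 to 161 counts per library.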
